A study of Homo sapiens with 11 samples.

Results

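The DNA replication genes described here are 46 genes listed by name, each read from the probe set of that gene with the highest mean over all arrays. All 46 were among the 19775 genes measured. By role, 15 belong to origin licensing, 8 to origin firing, 9 to the polymerases, 6 to the sliding clamp and its loader, 5 to single-strand binding and strand joining and 2 to nucleotide supply. The remaining member, FAM111B, encodes a protease. Their gene means ran between 6.98 and 12.54 on the log2 scale, so that all 46 lay at or above the level of the median gene, 6.4.

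Expression was profiled on 11 Affymetrix arrays of Reh cells, a human B-cell precursor leukaemia line with the ETV6-RUNX1 fusion. Cells of all groups had been infected with virus at 2.5 transducing units per cell and stably expressed miR-125b, so that every value below, the controls included, comes from cells with that microRNA. Precursor oligonucleotides were then delivered with Lipofectamine: miR-99a at 66 µM (n = 3 arrays), miR-100 at 66 µM (n = 3), miR-99a and miR-100 together at 33 µM each (n = 3), or a scrambled control at 66 µM (n = 2). A second dose followed after 72 h, and RNA was taken 48 h later. The oligo groups have arrays numbered 1, 2 and 3, whereas scrambled has numbers 1 and 2 only. The labels mention incubation in triplicate and do not say that the numbers are separate cultures, so the p-values measure the spread between these arrays, which may be technical. The labels give no cloning step for the infected line.

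A cell licenses its origins of replication in G1, when the origin recognition complex (ORC), CDC6 and CDT1 load the ring-shaped MCM2-7 helicase onto DNA. At the start of S phase the DBF4-CDC7 kinase and the factors CDC45, MCM10 and GINS turn that helicase on. Polymerase alpha with its primase subunits then lays down primers, the replication factor C complex (RFC) loads the clamp PCNA, and polymerases delta and epsilon extend the strands, while RPA covers single-stranded DNA, FEN1 and LIG1 finish the lagging strand and ribonucleotide reductase supplies the building blocks. Many of these genes are targets of the E2F transcription factors. They are highly active in proliferating lymphoid cells and leukaemia lines.

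The 2 oligos share their seed, the bases by which a microRNA finds most of its targets, which is why their mature sequences are shown here, with that of the stably expressed microRNA. They are RefSeq sequences (GRCh38.p14), written 5′ to 3′ with the seed, bases 2 to 8, in capitals.
miR-99a-5p: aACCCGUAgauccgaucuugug
miR-100-5p: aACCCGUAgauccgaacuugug
miR-125b-5p: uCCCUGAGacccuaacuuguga
The mature miR-99a lies at chr21:16539101-16539122 (plus strand) and miR-100 at chr11:122152275-122152296 (minus strand). They differ in 1 of 22 bases, A16U, with the base of miR-100 first and positions counted from 1 at the 5′ end. The seed of miR-125b is a different one.

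The promoters of several members carry words that E2F factors are known to bind. In the 250 bases upstream of the start, 14 of the 39 members found in the RefSeq promoter table (35.9%) held TTTCCCGC, TTTCGCGC, TTTGCCGC or TTTGGCGC on either strand, against 3.4% of 27305 genes in that table. Counted over promoters, the shares were 28.0% of 50 promoters of the members and 2.8% of 35093 promoters. Examples are shown with 30 bases on each side where the window reaches that far, the word in capitals and the strand that of the gene.
MCM6: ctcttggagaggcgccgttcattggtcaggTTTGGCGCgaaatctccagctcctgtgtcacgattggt
POLA1: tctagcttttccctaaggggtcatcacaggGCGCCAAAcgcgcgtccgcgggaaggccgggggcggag
POLE: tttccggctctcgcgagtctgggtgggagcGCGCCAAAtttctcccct
CDC7: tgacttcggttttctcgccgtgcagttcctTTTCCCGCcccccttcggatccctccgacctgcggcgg
RFC3: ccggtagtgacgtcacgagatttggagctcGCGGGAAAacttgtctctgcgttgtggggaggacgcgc
GMNN: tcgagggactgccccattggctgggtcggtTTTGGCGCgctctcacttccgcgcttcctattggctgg
PCNA: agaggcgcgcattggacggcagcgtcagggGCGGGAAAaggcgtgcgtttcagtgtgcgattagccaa
In GRCh38.p14, counting bases before the start as negative, they lie at chr2:135876496-135876563 on the minus strand, word at -90 to -83 (MCM6); chrX:24693751-24693818 on the plus strand, word at -137 to -130 (POLA1); chr12:132687343-132687390 on the minus strand, word at -18 to -11 (POLE); chr1:91501014-91501081 on the plus strand, word at -68 to -61 (CDC7); chr13:33818064-33818131 on the plus strand, word at -55 to -48 (RFC3). The last of them lie at chr6:24775303-24775370 on the plus strand, word at -80 to -73 (GMNN) and chr20:5126644-5126711 on the minus strand, word at -59 to -52 (PCNA). In MCM6 the bases that follow the capitals complete a second, overlapping word on the other strand. The other members with such a word were CDT1, GINS2, LIG1, MCM3, MCM7, ORC3 and POLA2. MCM4, MCM5, GINS4, POLD3, RPA2, RPA3 and FAM111B were not analysed here for promoter words. The word CCAAT stood in 59.0% of these members and 37.0% of all genes, and TTTGAA, the core of the cell-cycle homology region of late cell cycle genes, in 2.6% (RRM1 alone) and 16.1%. A match describes letters and is not evidence of binding.

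Values differed most between the numbered replicates. In the 9 oligo arrays, 33 of the 46 members (71.7%) rose in replicate 3 against replicates 1 and 2, with a median fold of 1.25 among them, and 3 fell: RPA3, ORC4 and GINS1. Over all 19775 genes 17.1% were called higher and 12.2% lower, and among the brighter genes, those with a mean of at least 6.4, 32.6% and 22.1%. The other 10 members did not pass. Without miR-100 replicate 3 the calls were 23 higher, against 9.95% of all genes and 18.6% of the brighter genes, and 5 lower, with ORC5 and POLE2 added, against 13.4% and 24.8%. The median log2 difference was 0.28 over the members, 0.0008 over all genes and 0.06 over the brighter genes. Calls come from limma with treatment as a term, at a Benjamini-Hochberg adjusted p under 0.05 over all genes, and the standard errors of the members ran between 0.07 and 0.08. In bulk RNA of this kind, more cells of a cycle phase and more RNA per cell cannot be told apart.

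The 3 replicate 3 arrays all lay above the other 6 in 26 members (56.5%), against 14.9% of all genes and 27.7% of the brighter genes. They all lay below in 3 members, against 11% of all genes, and overlapped in 17. After quantile normalization the counts were 32 above, against 16.8% of all genes and 30.6% of the brighter genes. In 3 members they lay below (ORC4, POLE2 and RPA3), against 13.7% and 24.8%. Of the 33 members called higher, 7 overlapped: MCM5, GINS4, RFC2, RFC4, RPA2, FEN1 and LIG1. Across the arrays, the median deviation of the members from their own means was 0.16, 0.28 and 0.05 in replicate 3 of miR-99a, miR-100 and the combination. It was -0.11, -0.13 and -0.18 in replicate 1 and 0.02, -0.16 and -0.06 in replicate 2. Scrambled replicates 1 and 2 stood at 0.04 and 0.10, below replicate 3 of the single oligos and above replicates 1 and 2 of every oligo group. No scrambled array numbered 3 exists among the samples, so whether scrambled cells of that replicate differed too was not measured.

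**Figure D1:**
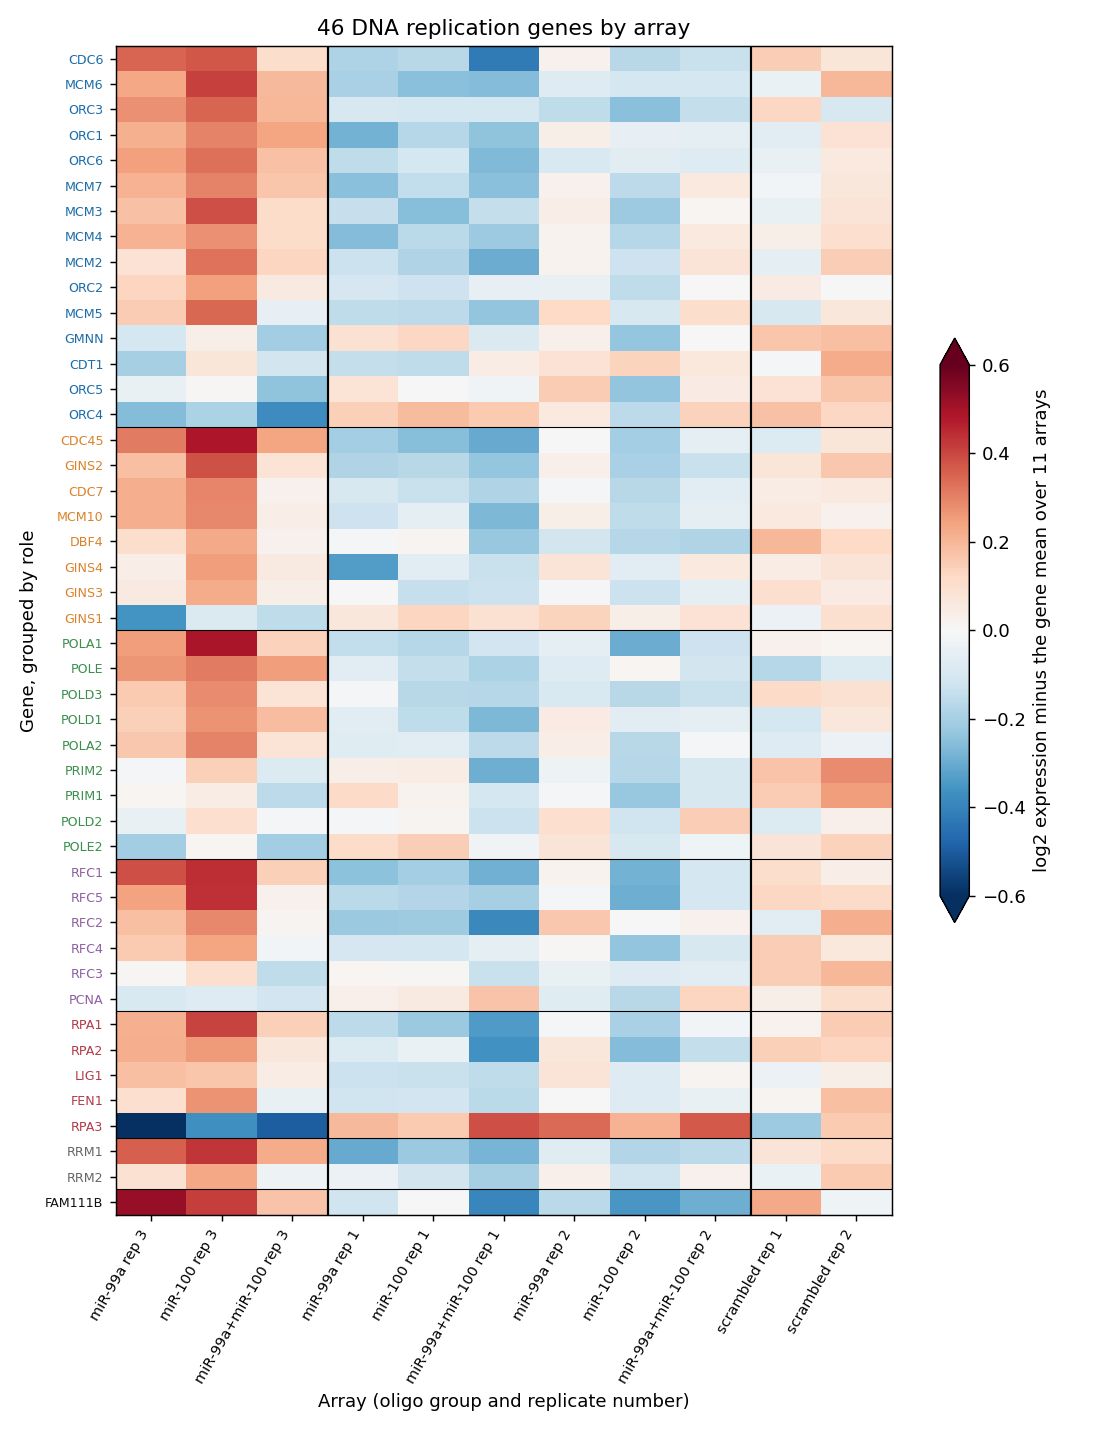
Level of each of the 46 genes (rows, grouped and coloured by role) on each of the 11 arrays (columns: replicate 3 of the oligo groups, then their replicates 1 and 2, then scrambled), as log2 expression minus the gene's mean over the arrays. Most rows are red in the 3 left columns, whereas RPA3, ORC4 and GINS1 are blue there.

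Among the origin licensing genes 11 of 15 rose, 1 fell and 3 did not pass (median difference 0.32). Below, oligo arrays are given in the order miR-99a, miR-100 and combination, on the log2 scale. CDC6, which brings the helicase to ORC, had 8.58, 8.61 and 8.34 in replicate 3, against 8.05, 8.07 and 7.81 in replicate 1 and 8.26, 8.07 and 8.10 in replicate 2, with 8.38 and 8.31 in scrambled. The replicate 3 arrays lay above the other 6 oligo arrays, and both scrambled arrays also did. The difference between replicate 3 and the others was 0.45 ± 0.07 (SE; adjusted p = 8.07e-07). MCM6, a subunit of the helicase ring, had 11.53, 11.71 and 11.50 in replicate 3, against 11.10, 11.05 and 11.04 in replicate 1 and 11.23, 11.19 and 11.19 in replicate 2, with 11.26 and 11.50 in scrambled. Again no oligo array of replicates 1 and 2 reached replicate 3, and the difference was 0.45 ± 0.07 (SE; adjusted p = 6.79e-07). All 6 subunits MCM2-7 rose, MCM7 by 0.35, MCM3 by 0.34, MCM4 by 0.32, MCM2 by 0.29 and MCM5 by 0.22.

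The origin recognition complex was split. ORC3 rose by 0.42, ORC1 and ORC6 by 0.38 each and ORC2 by 0.22, while ORC4 fell by 0.37 on the log2 scale (SE 0.07, adjusted p = 5.61e-05). ORC4 had 8.67, 8.74 and 8.55 in replicate 3, against 9.08, 9.12 and 9.09 in replicate 1 and 8.99, 8.77 and 9.07 in replicate 2, with 9.11 and 9.06 in scrambled. Its replicate 3 arrays were the lowest of the 11, although miR-100 replicate 2 came close. A dimmer probe set of ORC4, with a mean of 6.95, had a difference of 0.03, and the mean of both sets was not called (-0.17). ORC5 had -0.10 (adjusted p = 0.357). CDT1 and GMNN did not pass, unlike CDC6. CDT1, which loads the helicase with ORC and CDC6, had -0.08 (adjusted p = 0.462). GMNN, which encodes geminin, the inhibitor of CDT1, had 10.85, 10.99 and 10.75 in replicate 3, against 11.05, 11.08 and 10.87 in replicate 1 and 10.99, 10.72 and 10.96 in replicate 2, with 11.12 and 11.14 in scrambled. Replicate 3 overlapped the others, and all 9 oligo arrays lay below both scrambled arrays. The difference of GMNN for replicate 3 was -0.08 ± 0.07 (SE; adjusted p = 0.488).

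Of the 8 origin firing genes 7 rose and GINS1 fell. CDC45, which joins MCM2-7 and GINS in the active helicase, had 9.16, 9.33 and 9.08 in replicate 3, against 8.64, 8.59 and 8.54 in replicate 1 and 8.84, 8.64 and 8.79 in replicate 2, with 8.76 and 8.92 in scrambled. Replicate 3 stood above all 8 other arrays, by 0.52 ± 0.07 (SE; adjusted p = 7.68e-08) against the oligo arrays. The GINS complex, which works with 4 subunits, had 3 that rose and 1 that fell. GINS2 had 10.13, 10.34 and 10.04 in replicate 3, against 9.77, 9.79 and 9.72 in replicate 1 and 9.99, 9.76 and 9.82 in replicate 2, with 10.03 and 10.12 in scrambled. Replicate 3 was higher than the other oligo arrays without overlap, by 0.36 ± 0.07 (SE; adjusted p = 3.95e-05), and the scrambled arrays lay among the replicate 3 values or just under them. GINS3 had 8.11, 8.28 and 8.10 in replicate 3, against 8.06, 7.92 and 7.93 in replicate 1 and 8.05, 7.93 and 8.01 in replicate 2, with 8.16 and 8.11 in scrambled. The gap for GINS3 was narrow, at 0.18 ± 0.07 (SE; adjusted p = 0.035). GINS4 rose by 0.19. GINS1 fell by 0.29 on the log2 scale (SE 0.07, adjusted p = 5.13e-04), with replicate 3 at 10.58 to 10.86 and replicates 1 and 2 at 10.98 to 11.08. GINS1 had -0.14 after quantile normalization and -0.21 without miR-99a replicate 3, both short of a call. The kinase subunit CDC7 rose by 0.29, its activator DBF4 by 0.23 and MCM10 by 0.29.

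Among the 9 polymerase genes 5 rose and 4 did not pass. POLA1, the catalytic subunit of polymerase alpha, had 8.65, 8.89 and 8.54 in replicate 3, against 8.25, 8.22 and 8.28 in replicate 1 and 8.34, 8.10 and 8.27 in replicate 2, with 8.42 and 8.41 in scrambled. Scrambled lay between replicate 3 and the rest, and the difference was 0.45 ± 0.07 (SE; adjusted p = 1.63e-06). POLE, the catalytic subunit of polymerase epsilon, had 8.34, 8.38 and 8.32 in replicate 3, against 8.004, 7.93 and 7.88 in replicate 1 and 7.99, 8.08 and 7.96 in replicate 2, with 7.90 and 7.99 in scrambled. Here scrambled lay within replicates 1 and 2, and the difference was 0.37 ± 0.07 (SE; adjusted p = 8.88e-06). POLE2, an accessory subunit of the same enzyme, had -0.17 (95% interval -0.31 to -0.03, adjusted p = 0.0578). The delta subunits POLD3 and POLD1 rose by 0.30 and 0.29, and POLA2, the second subunit of polymerase alpha, by 0.25. POLD2 had 8.72, 8.86 and 8.75 in replicate 3, against 8.76, 8.78 and 8.64 in replicate 1 and 8.86, 8.64 and 8.91 in replicate 2, with 8.68 and 8.79 in scrambled. These values overlapped throughout, with a difference of 0.01 ± 0.07 (SE; adjusted p = 0.935). The primase subunits PRIM1 and PRIM2 had 0.02 and 0.10 (adjusted p = 0.91 and 0.301).

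**Figure D2:**
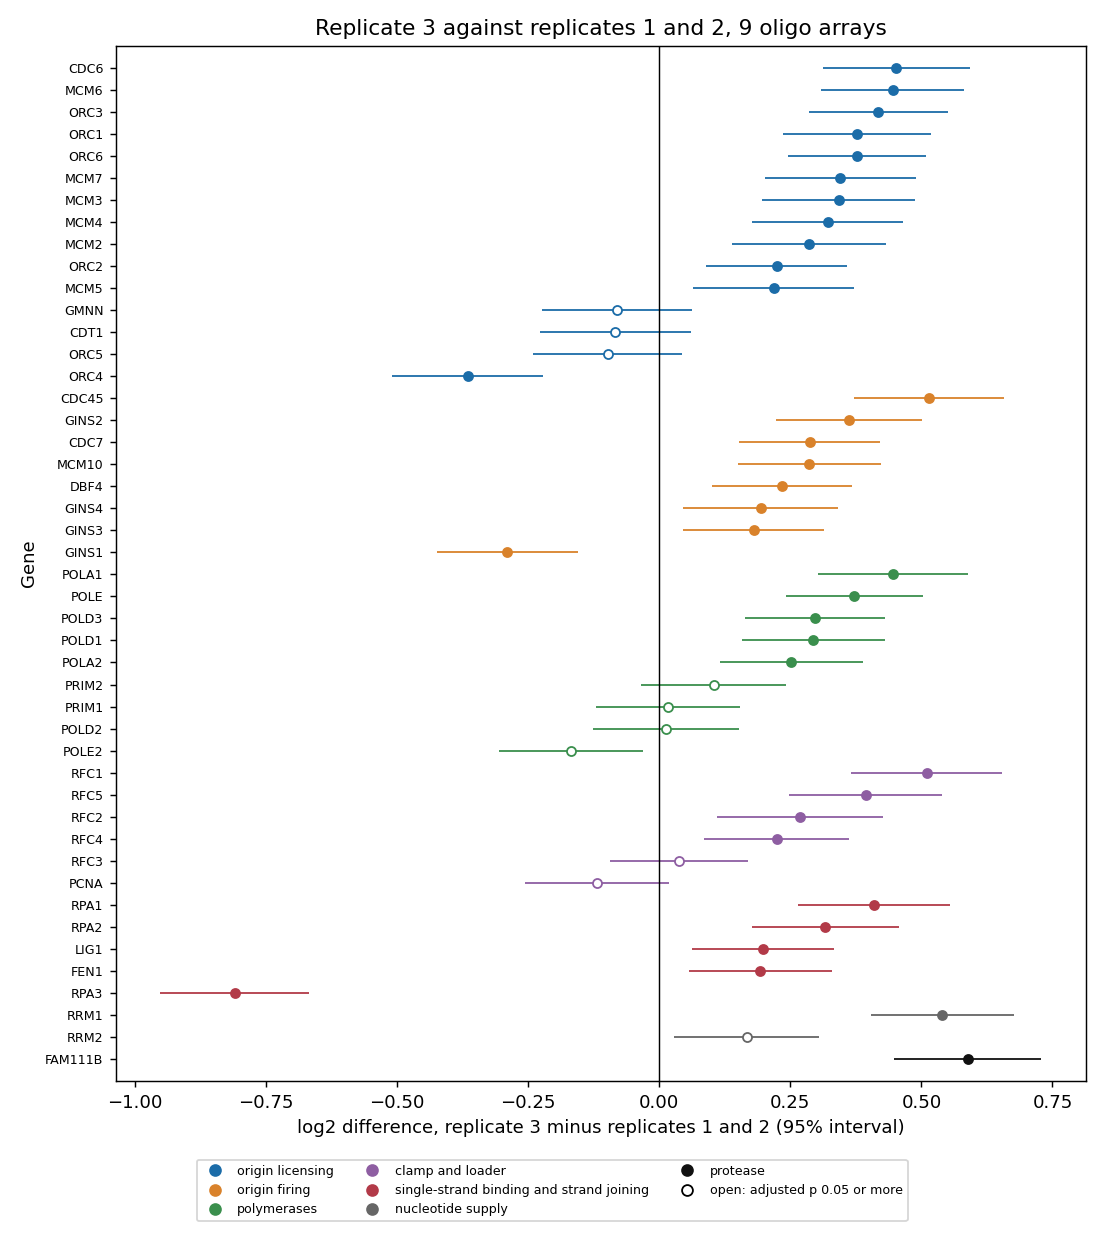
Difference between replicate 3 and replicates 1 and 2 in the 9 oligo arrays for the 46 genes, on the log2 scale, with 95% intervals from limma. Filled points passed and open points did not. The 33 rises run between 0.18 and 0.59, and RPA3 stands apart at -0.81.

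Of the 6 genes of the clamp and its loader 4 rose. RFC1, the large subunit of the loader, had 9.49, 9.55 and 9.25 in replicate 3, against 8.86, 8.90 and 8.82 in replicate 1 and 9.13, 8.82 and 9.00 in replicate 2, with 9.21 and 9.15 in scrambled. Scrambled lay between the 2 sets of oligo arrays, which differed by 0.51 ± 0.07 (SE; adjusted p = 1.12e-07). RFC5 had 9.36, 9.57 and 9.15 in replicate 3, against 8.97, 8.95 and 8.92 in replicate 1 and 9.11, 8.83 and 9.02 in replicate 2, with 9.25 and 9.24 in scrambled. Both scrambled arrays lay within the replicate 3 range, and the difference was 0.39 ± 0.07 (SE; adjusted p = 1.96e-05). RFC2 and RFC4 rose by 0.27 and 0.22. RFC3 had 9.20, 9.29 and 9.04 in replicate 3, against 9.20, 9.20 and 9.06 in replicate 1 and 9.15, 9.11 and 9.12 in replicate 2, with 9.34 and 9.39 in scrambled. The oligo arrays overlapped across the numbers, with a difference of 0.04 ± 0.07 (SE; adjusted p = 0.768), and all 9 lay below scrambled. The clamp PCNA had -0.12 (95% interval -0.26 to 0.02, adjusted p = 0.217).

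RPA, the trimer that coats single-stranded DNA, was split between its subunits. RPA3, the smallest subunit, had 10.42, 10.79 and 10.66 in replicate 3, against 11.35, 11.31 and 11.54 in replicate 1 and 11.50, 11.37 and 11.53 in replicate 2, with 10.94 and 11.32 in scrambled. The replicate 3 arrays were the lowest of the 11. RPA3 fell by 0.81 on the log2 scale, to 0.57 times the level of replicates 1 and 2 (SE 0.07, adjusted p = 1.11e-12). RPA1, the large subunit, had 11.33, 11.52 and 11.26 in replicate 3, against 10.96, 10.89 and 10.78 in replicate 1 and 11.11, 10.92 and 11.10 in replicate 2, with 11.14 and 11.27 in scrambled. It moved the other way, with replicate 3 above the other 6 oligo arrays by 0.41 ± 0.07 (SE; adjusted p = 9.54e-06). RPA2 rose by 0.32. RPA3, GINS1 and RPA2 were each read by a single probe set, whereas the 3 probe sets of RPA1 had 0.41, 0.44 and 0.20. Of the enzymes of strand joining, the ligase gene LIG1 rose by 0.20. FEN1, the flap nuclease, had 11.11, 11.28 and 10.97 in replicate 3, against 10.90, 10.90 and 10.85 in replicate 1 and 11.02, 10.94 and 10.97 in replicate 2, with 11.03 and 11.19 in scrambled. FEN1 passed, at 0.19 ± 0.07 (SE; adjusted p = 0.0243), although the combination array of replicate 3 lay among the others.

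Ribonucleotide reductase makes deoxyribonucleotides from a large subunit, RRM1, and a small one, RRM2. RRM1 had 11.39, 11.46 and 11.25 in replicate 3, against 10.72, 10.81 and 10.75 in replicate 1 and 10.96, 10.85 and 10.87 in replicate 2, with 11.11 and 11.14 in scrambled. Scrambled again lay between, and the difference was 0.54 ± 0.07 (SE; adjusted p = 8.63e-09). RRM2 had 12.10, 12.25 and 11.98 in replicate 3, against 11.97, 11.90 and 11.81 in replicate 1 and 12.04, 11.89 and 12.04 in replicate 2, with 11.97 and 12.17 in scrambled. Its arrays overlapped, and 0.17 ± 0.07 missed the threshold (SE; adjusted p = 0.0619). The second probe set of RRM2, nearly as bright with a mean of 11.55, had a difference of 0.35. After quantile normalization the representative set had 0.32, 0.44 and 0.37 in miR-99a, miR-100 and the combination. Whether RRM2 rose therefore depends on the probe set and the processing. FAM111B had 9.87, 9.76 and 9.52 in replicate 3, against 9.23, 9.35 and 8.96 in replicate 1 and 9.19, 9.00 and 9.05 in replicate 2, with 9.57 and 9.32 in scrambled. Of the 46 members FAM111B rose most, by 0.59 ± 0.07 (SE; adjusted p = 2.21e-09), and its second probe set had 0.54.

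**Figure D3:**
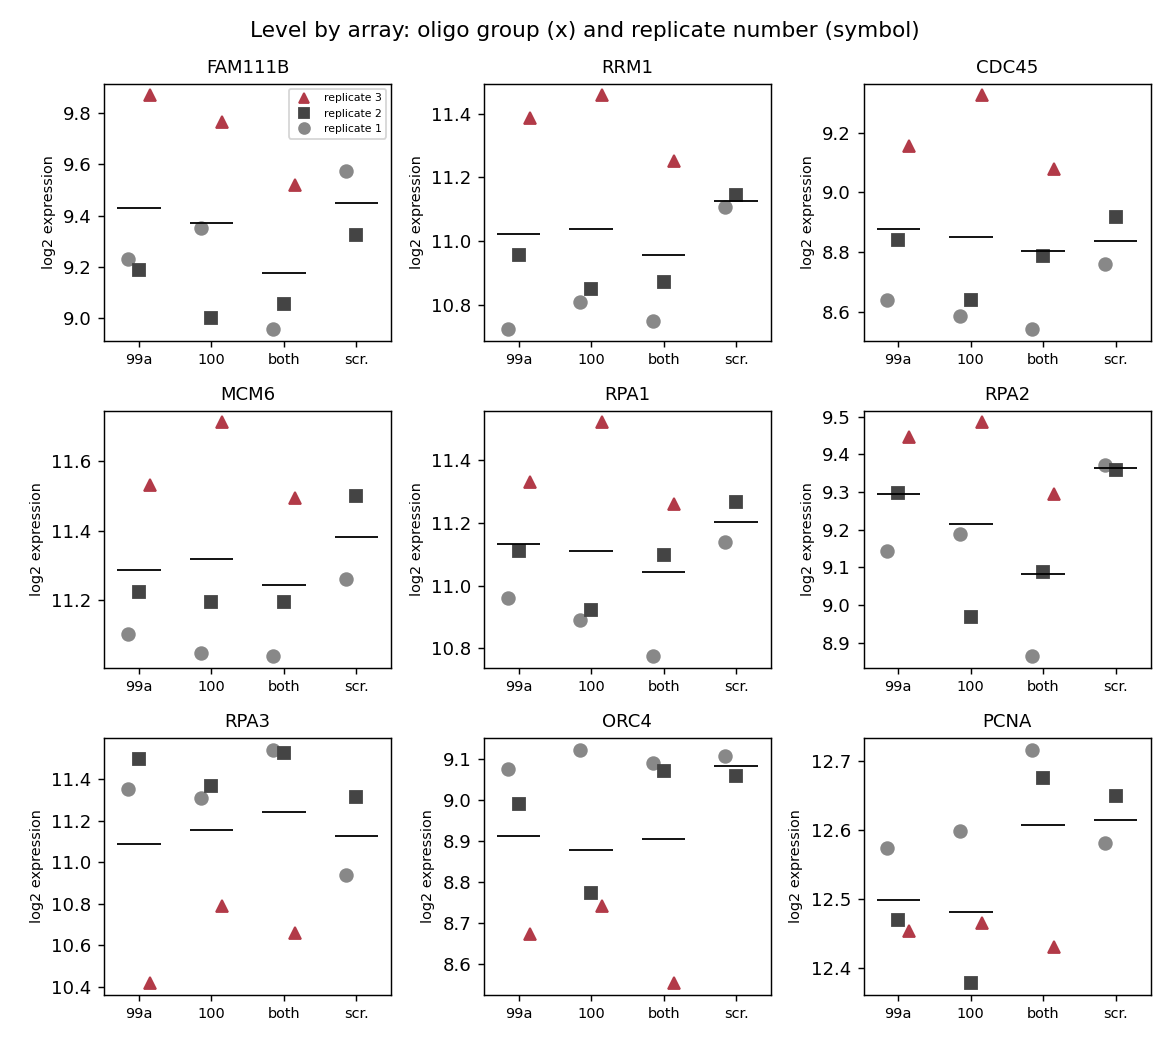
Level of 9 of the genes on each array, as log2 expression, by oligo group (99a, miR-99a; both, the combination; scr., scrambled) and replicate number (symbol), with group means as bars; the vertical scale differs between panels. The replicate 3 triangles are above the other oligo arrays in FAM111B, RRM1, CDC45, MCM6 and RPA1, below them in RPA3 and ORC4, and overlap in RPA2 and PCNA.

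The members with E2F-type promoter words were found among those that rose and those that did not: 10 of 27 members called higher (37.0%) and 4 of the 12 others (33.3%: RFC3, GMNN, CDT1 and PCNA). The 24 members with several probe sets gave the same sign in all of them in 18 cases. Of the 37 probe sets that did not represent their gene, 31 had the sign of the one that did. The exceptions were in GINS2, ORC4, ORC5, POLD3, RFC1 and RFC3. Probe sets that represent ORC6 and CDT1 are of a kind that can detect related transcripts. A further 19 members are represented by sets of a kind that matches several transcripts.

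The replicate 3 difference was seen in each oligo group, with medians over the members of 0.21 in miR-99a, 0.40 in miR-100 and 0.18 in the combination. It had the same sign in the 3 groups in 39 members, and the exceptions were ORC5, CDT1, GMNN, PRIM1, PRIM2, POLD2 and RFC3. Its most positive value was in miR-100 in 44 members, as in 82.0% of the brighter genes, whose medians were 0.005, 0.17 and 0.02. This order of the oligo groups was not kept after quantile normalization, where the medians of the members were 0.32, 0.21 and 0.225 and miR-100 had the most positive value in 14 members. The test of the difference between groups, a moderated F-test over all genes, called 0 members (0.0% of all genes), with 1706 genes at an unadjusted p under 0.05 and a smallest adjusted p of 0.566. After quantile normalization 0 members were called as well, with 681 genes at an unadjusted p under 0.05. The members with an unadjusted p under 0.05 were MCM3, POLA1, RFC5 and RPA3 for the deposited values and 0 after quantile normalization. For the deposited values POLA1, for example, had 0.36, 0.72 and 0.26 in miR-99a, miR-100 and the combination, and RPA3 had -1.01, -0.55 and -0.87.

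Replicate 2 differed less from replicate 1 over the 8 arrays with those numbers. RFC2 rose by 0.32 in replicate 2 (limma), 1 of 46 members against 0.399% of all genes, and 0 fell, against 0.187%. That call was lost without miR-99a replicate 1 or 2. The median over the members was 0.08, beside 0.01 over all genes and 0.03 over the brighter genes, and 33 of the 46 were higher. At an unadjusted limma p under 0.05 there were 19 members, 3 of them lower, among 2283 of all 19775 genes. In the sums of squares of the 9 oligo arrays, replicate number held a median of 75.6% over the members and oligo treatment 5.7%, against 39.2% and 11.3% over all genes and 64.8% and 6.0% over the brighter genes. Number held over 50% in 38 members (82.6%), against 40.1% of all genes and 63.8% of the brighter genes. ORC1, ORC3, RRM1 and POLE had the highest shares for number, between 94.2% (POLE) and 95.8% (ORC1). RFC3 had the lowest, 7.4%, with 56.9% for treatment, followed by POLD2, whose rest term was 85.6%.

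Other lists of the replication programme moved both ways in replicate 3, as did genes in general. Of all genes 17.1% were called higher and 12.2% lower, and of the brighter genes 32.6% and 22.1%. Of 23 further fork proteins 12 rose and 6 fell: TOPBP1, an activator of origin firing and of the checkpoint kinase ATR, rose by 0.47 and the fork protection gene TIMELESS by 0.41, while RNASEH2B, a subunit of ribonuclease H2, fell by 0.63 and MTBP, a firing factor, by 0.56. Of 12 further nucleotide supply genes 5 rose, among them IMPDH2 (0.44) and CTPS1 (0.35), the enzymes of guanine nucleotide and CTP synthesis. The kinase gene DCK fell by 0.53 and DUT, which removes dUTP, fell by 0.45, among 3 in all. Of 9 chromatin assembly genes 4 rose, with the histone chaperone NASP at 0.41 and the methyltransferase DNMT1 at 0.26, and 3 fell, with the chaperones ASF1B at -0.51 and ASF1A at -0.44. Of 21 regulators of G1 and S phase 6 rose and 6 fell. RBL1 and E2F7 rose by 0.34 and 0.27, whereas the CDK inhibitor CDKN1A fell by 0.52 and CDK2 fell by 0.43. Of 18 mitotic genes 13 rose, led by CENPE (0.92) and CENPF (0.82), and CDK1 fell by 0.61. The medians of these lists were 0.20, 0.12, 0.09, -0.02 and 0.38 in that order, beside 0.28 for the members.

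The arrays carried the markers of the labelled cell type. The 9 B-lineage genes measured had means of 8.83 (MME) to 13.09 (DNTT), whereas those of T and NK cells had 5.58 to 5.97, of myeloid cells 5.33 to 7.50 (MPO), of erythroid cells 5.36 to 6.60 and of fibroblasts 5.29 to 7.07. B-lineage list means were 10.95 to 11.06 in replicate 3, against 10.90 to 11.13 in replicates 1 and 2. Beside the replicate 3 differences of the members, MME rose and CD79A and IGLL1 fell, and 0 markers of the other lists were called. Their part in the members' differences was not tested.

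Against scrambled, in the fit over all 11 arrays with no term for replicate number, 0 members were called with miR-99a, miR-100, the combination or the mean of the 3 (0.0% of all genes each). At an unadjusted p under 0.05 there were 198, 305, 724 and 489 genes, and 2, 3, 5 and 4 members, all lower. The median differences of the members were -0.06, -0.07, -0.12 and -0.09 for the deposited values and -0.01, -0.003, -0.07 and -0.04 after quantile normalization. Leaving out 1 array turned the sign of the single-oligo medians, to 0.01 for miR-99a without its replicate 1 and to 0.004 for miR-100 without its replicate 1 or 2. The smallest p-values belonged to the loader subunit RFC3 and the primase genes. PRIM2, the large primase subunit, had 7.02, 7.03 and 6.69 in replicate 1, 6.95, 6.81 and 6.89 in replicate 2 and 6.98, 7.12 and 6.90 in replicate 3, against 7.15 and 7.27 in scrambled. PRIM1, the catalytic primase subunit, had 9.70, 9.60 and 9.48 in replicate 1, 9.57, 9.35 and 9.49 in replicate 2 and 9.59, 9.63 and 9.43 in replicate 3, against 9.74 and 9.83 in scrambled. In both genes and in RFC3 and GMNN all 9 oligo arrays lay below both scrambled arrays, 4 of 46 members against 1.6% of all genes and 2.48% of the brighter genes. After quantile normalization this held for PRIM1, PRIM2 and RFC3 and not for GMNN, against 1.47% of all genes and 1.6% of the brighter genes. The combination had the lowest mean: -0.38 ± 0.10 for PRIM2, -0.32 ± 0.09 for PRIM1 and -0.29 ± 0.07 for RFC3 (SE; limma adjusted p = 0.9998 each). With miR-99a and miR-100 alone the values were -0.23 and -0.22 for PRIM2, -0.16 and -0.26 for PRIM1 and -0.18 and -0.16 for RFC3. These comparisons share the 2 scrambled arrays.

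Because the replicate 3 arrays stood high and scrambled has none of that number, the comparison was also made among replicates 1 and 2. There all 6 oligo arrays lay below both scrambled arrays in 20 members (43.5%), against 10.9% of all genes and 20.1% of the brighter genes. They lay above in 0 members, against 5.28% of all genes. After quantile normalization they lay below in 16 members, against 8.22% of all genes and 13.1% of the brighter genes. They lay above in RPA3 alone, against 8.63% and 14.2%. For the deposited values the 20 were ORC6, CDC6, GMNN and MCM6 among the licensing genes, CDC7, DBF4, GINS2 and GINS3 among the firing genes, POLA1, PRIM1, PRIM2 and POLD3, the loader subunits RFC1, RFC3, RFC4 and RFC5, RPA1, RPA2, FEN1 and RRM1. Of the replicate 3 arrays, all 3 lay above both scrambled arrays in 15 members, against 18.1% of all genes and 23.6% of the brighter genes, and below both in 10, against 17.2% and 25.2%. In 4 members, ORC6, POLA1, RFC1 and RRM1, scrambled lay between replicates 1 and 2 below and replicate 3 above. Array by array, the median difference of the members from scrambled of the same number was -0.13 and -0.06 in replicates 1 and 2 of miR-99a, -0.14 and -0.26 in those of miR-100 and -0.22 and -0.13 in those of the combination. Over the brighter genes these medians were -0.03 and -0.01 with miR-99a, -0.06 and -0.13 with miR-100 and -0.05 and -0.03 with the combination.

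With replicate 3 as a term over all 11 arrays, 10 members fell and 1 rose with the combination, against 1.43% of all genes lower and 0.809% higher, or 2.8% and 1.51% of the brighter genes. The median over the members was -0.19, beside -0.06 over the brighter genes. FAM111B had -0.47 ± 0.10 (SE; adjusted p = 0.0174), PRIM2 -0.42, CDC6 -0.41, GINS2 -0.33, PRIM1 -0.33, RRM1 -0.35, and the loader subunits RFC5 and RFC3 -0.35 and -0.30. DBF4 had 10.33, 10.35 and 10.11 in replicate 1, 10.22, 10.16 and 10.15 in replicate 2 and 10.44, 10.56 and 10.36 in replicate 3, against 10.53 and 10.46 in scrambled. Its difference in the combination was -0.37 ± 0.09 (SE; adjusted p = 0.0242). RPA2 had 9.14, 9.19 and 8.87 in replicate 1, 9.30, 8.97 and 9.09 in replicate 2 and 9.45, 9.49 and 9.30 in replicate 3, against 9.37 and 9.36 in scrambled, a difference in the combination of -0.39 ± 0.09 (SE; adjusted p = 0.0248). In both genes the combination arrays of replicates 1 and 2 lay below both scrambled arrays, and so did its replicate 3 array. RPA3 rose, by 0.39 ± 0.10 (SE; adjusted p = 0.0389), with 11.54 and 11.53 in replicates 1 and 2 of the combination, against 10.94 and 11.32 in scrambled. The replicate 3 array of the combination, at 10.66, lay below both scrambled arrays. Over all its arrays the combination had a mean of 11.24 for RPA3, against 11.13 in scrambled. With miR-99a, miR-100 and the mean of the 3 groups 0 members passed, with medians of -0.14, -0.15 and -0.15. At an unadjusted p under 0.05 there were 13, 17 and 23 members, of which 12, 16 and 22 were lower, among 1734, 2258 and 3023 of all 19775 genes.

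Restricted to the 8 arrays of replicates 1 and 2, the combination was lower in 5 members (PRIM2, FAM111B, DBF4, RPA2 and CDC6), against 0.546% of all genes, and higher in RPA3, against 0.92%. The mean of the 3 oligo groups was lower in 3 members, PRIM2, RRM1 and RFC5, against 0.612%. The 9888 brighter genes, to which all 46 members belong, held most of these calls. With the combination they held 103 of the 108 genes lower and 177 of the 182 higher. For the mean of the 3 groups they held 119 of the 121 genes lower. The combination's calls depend on how replicate number was treated: 0 in the fit with no such term, 11 with replicate 3 as a term and 6 in replicates 1 and 2 alone. With quantile normalization and replicate 3 as a term, 8 members were lower and 1 higher, while the split over all genes changed to 399 higher and 189 lower, against 160 and 283 for the deposited values. With replicate 3 as a term, the combination was lower in 1.43% of all genes and 2.8% of the brighter genes. Among the related lists, the combination was lower in that fit in 5 of 18 mitotic genes, led by CENPE (-0.52) and AURKA (-0.36). It was also lower in 1 of 23 further fork proteins, POLE3 (-0.37), a histone-fold subunit of polymerase epsilon. It called 0 of 12 nucleotide supply, 9 chromatin assembly and 21 G1 and S phase genes, where DUT (0.24), PCLAF (0.29) and CCNA2 (-0.29) had the smallest p.

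**Figure D4:**
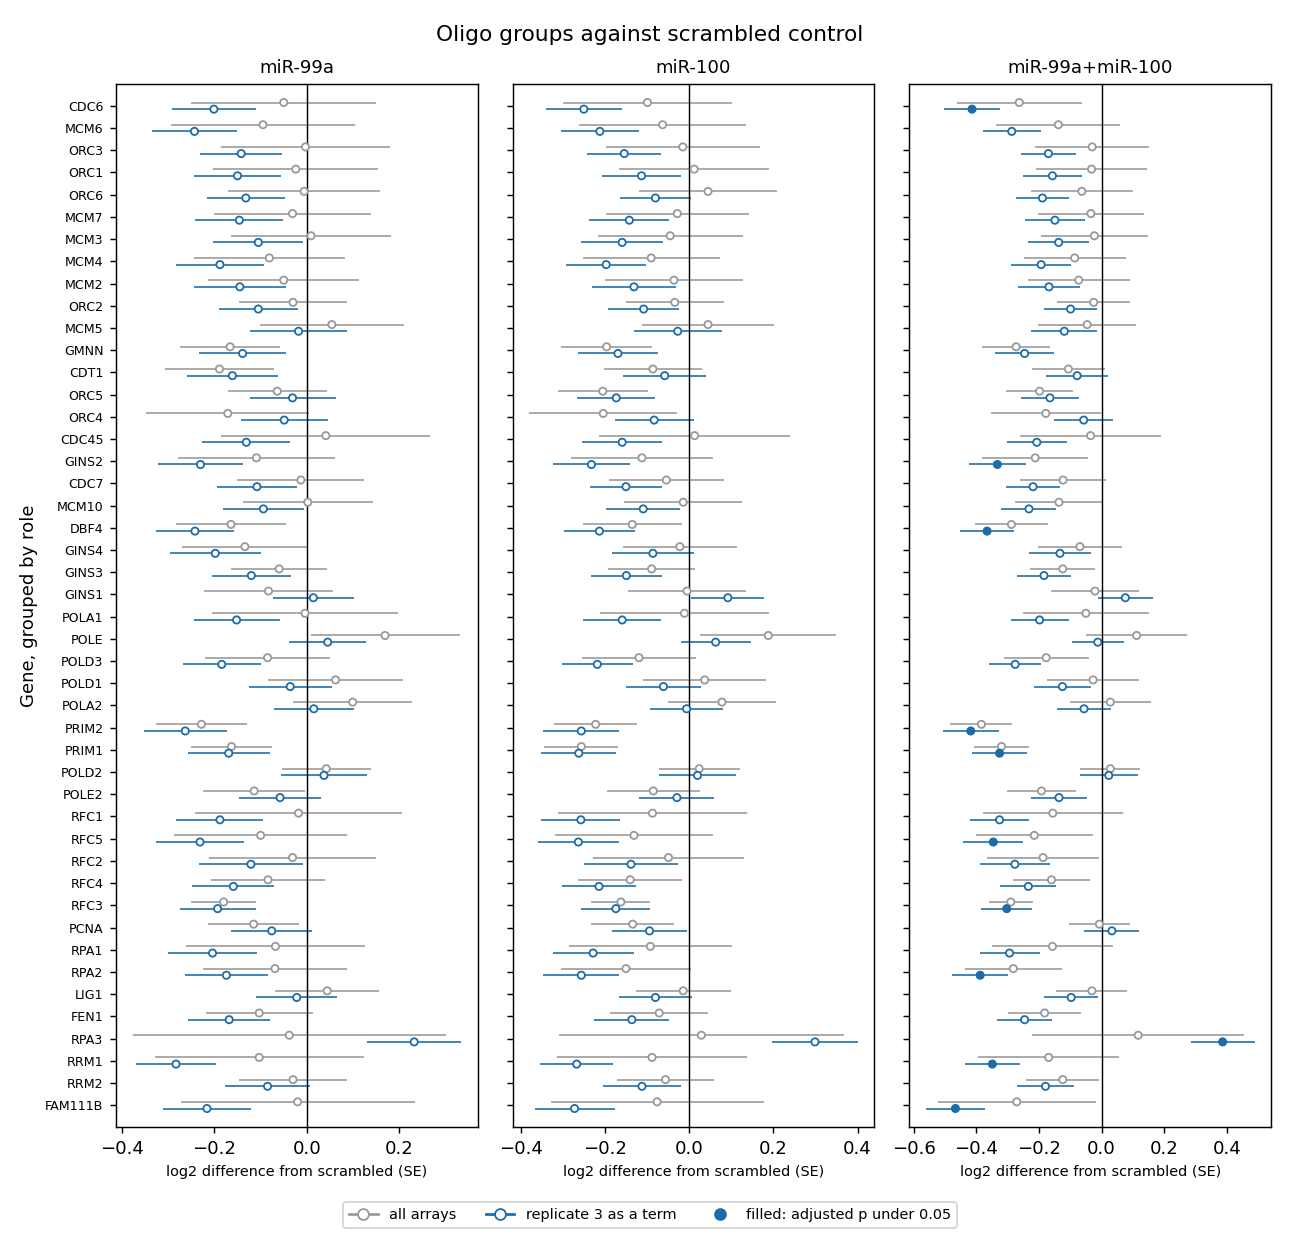
Difference of each oligo group from scrambled for the 46 genes, on the log2 scale, with standard errors, in the fit over all arrays (grey) and with replicate 3 as a term (blue). Filled points passed, which only blue points of the combination did: 10 below 0 and RPA3 above.

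Between the oligos, whose seeds are identical, 0 members were called for miR-100 against miR-99a (0.0% of all genes), where 194 genes had an unadjusted p under 0.05, 0 of them members. The median difference was -0.02 over the members, and 0.003 after quantile normalization. Within single numbers it was -0.001 in replicate 1, -0.16 in replicate 2 and 0.12 in replicate 3, with miR-100 higher in 23, 3 and 44 of 46 members. The brighter genes had medians of -0.03, -0.13 and 0.11 there, with miR-100 higher in 36.2%, 12.6% and 84.4%. The smallest p was that of ORC5, at -0.14 (95% interval -0.35 to 0.07). For the combination set against the 2 single-oligo groups averaged 0 members were called (0.0%), with 451 genes at an unadjusted p under 0.05. The median was -0.07, and within numbers -0.06, 0.02 and -0.15. RFC3 had the smallest p there, at -0.12 (95% interval -0.24 to 0.001).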

How the data were processed

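Total RNA of 11 samples was hybridised to 1-colour Affymetrix arrays. The authors deposited 1 log2 value per probe set and array (4.398 to 14.839, array medians 5.95 to 5.984). The summary and normalization method is not given in the sources used here, and no renormalization was applied. Array number limits the precision. Of 54675 probe sets, 62 controls, 1801 with several genes and 11777 without a gene were left out. The remaining 41091 were named from the platform annotation (41037 gene IDs matched RefSeq), and for each of 19775 genes the probe set of highest mean was kept.

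Groups and numbers come from the sample titles. Differences were fitted with limma 3.58.1 in R 4.3.3 (lmFit, eBayes) over all genes, with Benjamini-Hochberg adjustment and calls at 0.05, after a test of the code on simulated data. The replicate 3 comparison used the 9 oligo arrays with treatment as a term, and group comparisons used all 11 arrays without a block. Deviations from group means correlated between same-numbered arrays of the oligo groups (9 pairs, r 0.168 to 0.816). Between oligo and scrambled groups the correlations were mixed (6 pairs, r -0.152 to 0.438, 3 over 0.1). Replicate 2 pairs had 0.148 to 0.438 and replicate 1 pairs -0.152 to -0.019. The oligo means include replicate 3 and the scrambled means do not, so these values cannot show whether the numbers pair arrays. Alternatives were quantile normalization, a filter at the median level, the mean of all probe sets, each array left out, replicate 3 as a term, replicates 1 and 2 only and the replicate block.

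Members and gene lists were chosen with earlier results of these data known. Values of every array are given for the 2 members with the largest and the 1 with the smallest replicate 3 difference in each role and the 2 with the smallest p against scrambled. ORC4, DBF4 and RPA2 were added for their calls after their values were seen. From each related list up to 2 genes per direction are named by size of the replicate 3 difference. Some listed genes are not reported here.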

Additional observations from a re-analysis of the deposited data

Results flagged for a closer look

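In 4 of the 7 members whose replicate 3 difference did not keep 1 sign, replicate 3 lay above both other arrays in 1 oligo group and below both in another. ORC5 had 0.128 in miR-100, against -0.16 in miR-99a. PRIM1 had 0.148 in miR-100, against -0.06 in the combination. POLD2 had 0.149 in miR-100, against -0.09 in miR-99a. RFC3 had 0.136 in miR-100, against -0.05 in the combination. The moderated F-test of the difference between groups called 0 of them, with adjusted p = 0.566 for ORC5, 0.719 for PRIM1, 0.703 for POLD2 and 0.76 for RFC3. Each group has 1 array numbered 3, so the opposite signs rest on single arrays. After quantile normalization the miR-100 values were negative in all 4, at -0.10 for ORC5, -0.04 for PRIM1, -0.08 for POLD2 and -0.09 for RFC3.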

How the results depend on the processing

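The replicate 3 result kept its direction under all 17 alternatives, with 22 to 34 members higher (22 against replicate 2 only) and medians of 0.199 to 0.323. Members called lower ran between 2 and 5 with single arrays left out. Of the 36 called members 21 kept their call in every alternative, and GINS3, GINS4, LIG1, MCM5 and FEN1 lost theirs most often. For replicate 2 against replicate 1, members called higher were 2 when only the brighter genes were tested, 0 with the mean of all probe sets and 0 to 1 with an array left out. Several alternatives named here, those with a trended spread, those that join a block or quantile normalization to another choice and the overlap counts after quantile normalization, were chosen after seeing the data.

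Against scrambled, the sign of the single-oligo medians turned when 1 array was left out, with ranges of -0.126 to 0.014 for miR-99a and -0.2 to 0.004 for miR-100. Calls came only where replicate number was modelled or replicate 3 left out. For the combination, 1 member was higher in each such fit, and the number lower was 10 with replicate 3 as a term, 4 with a trended spread added, 8 with quantile normalization added, 5 with replicates 1 and 2 only, 15 with the replicate block, 11 with the block after quantile normalization and 9 with the block in replicates 1 and 2. For the mean of the oligo groups the number lower was 8 with the replicate block, 6 with the block after quantile normalization, 14 with the block in replicates 1 and 2, 4 with quantile normalization and replicate 3 as a term, 1 with the trended spread and 3 with replicates 1 and 2 only, and 1 was higher in the first 4 of these. For miR-100 the block in replicates 1 and 2 gave 1 lower, and the median within replicate 2 was -0.264, beside -0.134 over the brighter genes. Whether the numbers pair oligo with scrambled arrays could not be settled, as scrambled has no replicate 3. The block fits are therefore a description only. Between oligo groups the block changed no call of a member. The causes were not tested. Scrambled has no array numbered 3, so for replicate 3 number and oligo cannot be told apart against scrambled. Among the oligo groups each number has 1 array per group, so number and treatment could be separate terms.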
